A study of Mus musculus and Homo sapiens with 7 samples.

Results

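Cilium genes were followed guide by guide in a pooled knockout screen of the mouse melanoma line B16-F10, which expressed Cas9 and received a guide library. The 4 genes were Ttc26, Iqcd, Spag17 and Pih1d2. Every guide that the deposited guide table assigns to one of them was taken, 10 guides for each gene and 40 of the 10021 guides in all. Dead cells from galactose medium gave 3 libraries and living cells from glucose medium gave 2, both after 48 h in that medium and after 7 days of selection with puromycin at 2 µg/mL. All 5 libraries come from the same Cas9 line with the same guide library, and guides were amplified from 5 µg of genomic DNA. Galactose medium forces cells to lean on mitochondrial respiration. Medium and cell state changed together, so their parts in any difference cannot be told apart. The labels do not say whether each library is a culture of its own, so the spread between libraries may be technical. The readout is guide DNA, which does not show whether the melanoma cells express these genes or carry cilia.

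A cilium is a thin membrane-covered projection built on a shaft of microtubules, the axoneme. Intraflagellar transport carries building blocks along the axoneme, and in motile cilia and sperm tails dynein arms bend the shaft under the control of the central pair and the nexin links. Loss of the non-motile primary cilium has been described in melanoma. Ttc26 encodes a subunit of the IFT-B transport complex. Iqcd encodes a part of the nexin-dynein regulatory complex, the link between neighbouring microtubule doublets. Spag17 encodes a protein of the central pair of motile cilia. Pih1d2 belongs to the PIH family of co-chaperone factors, and in zebrafish it acts in the assembly of axonemal dynein.

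The genes were not an independent choice. In the authors' deposited gene table Iqcd was placed 2 and Ttc26 was placed 3 for gain in dead cells, with p-values of 0.00811 and 0.0104. Spag17 was placed 5 for loss in that table, with a p-value of 0.00246. Pih1d2 was placed 33 for gain, with a p-value of 0.0614. The same table had no gene with an FDR under 0.05 in either direction, and its FDR was 1 for the gain of Iqcd, Ttc26 and Pih1d2 and 0.368 for the loss of Spag17. Because those ranks come from the contrast described here, the changes below are descriptions and no p-value is read for the 4 genes.

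Total depth was 14722843, 13275778 and 15591454 reads in the dead libraries, called a, b and c, and 6801049 and 8492138 in the living ones, a and b. A single read was worth 0.761 to 0.863 normalised counts in the dead libraries, and 1.57 and 1.25 in the living ones. Of the 40 guides, 9 were at 0 in every library (22.5%, against 22.4% of the 9271 gene-targeting guides). These were 4 guides of Ttc26, 2 each of Iqcd and Spag17, and 1 of Pih1d2. A further Iqcd guide was seen but had a mean under 10 normalised counts, and 30 guides had a mean of 10 or more and entered the comparison. Changes are differences of log2(normalised count + 1), dead minus living, with the SE of a limma fit over all 7248 guides that passed that minimum. This scale understates changes of guides with low counts. The minimum is a mean over 5 libraries of which 3 are dead, so a rare guide passed it more easily when it was high in dead cells.

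Of the 6 tested Ttc26 guides, 5 had a change above 0, 2 of them with separate groups, while 1 rare guide was far lower. Of all tested gene-targeting guides, 43.6% had a change above 0 and 15.1% had all dead libraries above both living ones. The share above 0 rose with abundance. It was 390 of 1259 at a mean of 10 to 100, 1091 of 2711 at 100 to 1000, and 1441 of 2729 from 1000 upward. Guide 61295, the most abundant, had 6420, 8418 and 8150 normalised counts in dead cells (libraries a, b and c, in this order throughout), against 4357 and 4876 in living cells (a and b). All dead values lay above both living ones, and the change was 0.72 ± 0.23 (SE), a ratio of means of 1.66. Guide 61299 had 4545, 5113 and 4563 normalised counts in dead cells and 3207 and 3619 in living cells, again without overlap, with a change of 0.47 ± 0.20.

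Guide 61300 of Ttc26 had 4509, 6095 and 7673 normalised counts in dead cells and 4398 and 4713 in living cells. Its dead library a fell between the living ones and the other dead libraries lay above them (0.39 ± 0.30). Guide 61291 had 607, 1381 and 1570 normalised counts in dead cells and 664 and 753 in living cells. Here dead library a was below both living libraries and the other dead ones were well above them, for a change of 0.63 ± 0.49. Guide 61293 had 220, 388 and 551 normalised counts in dead cells and 388 and 311 in living cells, overlapping, with a change of 0.06 ± 0.46.

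The last Ttc26 guide in the comparison, 61292, was rare and erratic. It had 49.5, 0 and 1.55 normalised counts in dead cells, against 18.8 and 72.4 in living cells, which corresponds to 65, 0 and 2 reads in the dead libraries and 12 and 58 in the living ones. Dead library a fell inside the living range while b and c were nearly empty, and the change was −2.92 ± 1.90.

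The change of the Ttc26 mean had no settled sign, and of its guides 61292 moved it most when left out. The mean log2 guide level was 9.94, 9.49 and 9.86 in dead libraries and 9.69 and 10.05 in living ones, which overlap, for a change of −0.11 ± 0.24. Without guide 61292 the change was 0.45, and without any of the other guides in turn it lay between −0.27 and −0.14. Among guides with a mean of at least 50, 5 of 5 Ttc26 guides were higher in dead cells, by 0.06 to 0.72. Of 867 genes with at least 4 such guides, 13 (1.5%) had all of them higher, and 2 of those 13 had a larger median guide change than the 0.47 of Ttc26. That minimum left out guide 61292, the 1 tested Ttc26 guide with a change below 0. This way of counting was chosen after the values had been seen. Ttc26 itself was chosen on this contrast, so nothing is read from its place among the 13. Summed over guides, Ttc26 had 16350, 21395 and 22508 normalised counts in dead cells and 13032 and 14344 in living cells. The log2 difference of the sums was 0.54, and 0.44 without the most abundant guide. The median of such summed differences over all genes was 0.06.

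Iqcd was a different case, in which guides of 1 gene lay far from 0 in opposite directions. Guide 202594 had 11192, 44153 and 55996 normalised counts in dead cells, against 7412 and 7016 in living cells. Every dead library was above both living ones, but dead library a by far less than b and c: the change against the living mean was 0.63 in a, 2.61 in b and 2.96 in c. Over the group this was 2.07 ± 0.79, a ratio of means of 5.14. The guide took 0.0999%, 0.385% and 0.464% of all normalised counts in the dead libraries and 0.0695% and 0.0662% in the living ones. By mean level it ranked 3 among all guides in dead cells and 181 in living cells. Among 2972 tested guides with a mean of at least 1000, its change ranked 4. Iqcd was chosen on this contrast, so nothing is read from these ranks.

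The other abundant Iqcd guides did not share that change. Guide 202592 had 6796, 5079 and 5092 normalised counts in dead cells and 4128 and 4190 in living cells, without overlap (0.43 ± 0.24). Guide 202596 had 5477, 4475 and 6183 normalised counts in dead cells and 4556 and 4208 in living cells, with dead library b between the living ones (0.28 ± 0.24). Guide 202598 had 3611, 2955 and 2410 in dead cells and 2766 and 3746 in living cells, overlapping (−0.13 ± 0.29). Guide 202597 was lower in dead cells, with 340, 240 and 359 normalised counts in dead cells and 750 and 667 in living cells. All its dead values lay below both living ones, at a change of −1.20 ± 0.27 and a ratio of means of 0.442.

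Rare Iqcd guides differed widely between the groups, on very few reads. Guide 202591 had 0, 0 and 0.774 normalised counts in dead cells, a single read in all, against 61.2 and 15 in living cells (39 and 12 reads). Its change was −4.70 ± 0.69, and the ratio of dead to living reads per unit of normalised depth was 0.00749, with an exact 95% interval of 0.000186 to 0.0437 that covers counting error only. Guide 202599, the one under the minimum, had 1.52, 0 and 0 normalised counts in dead cells and 15.7 and 26.2 in living cells, a ratio of 0.0247 (0.00286 to 0.0969). Guide 202595 did the reverse, with 27.4, 2.59 and 34.1 normalised counts in dead cells and 4.71 and 1.25 in living cells. It rested on 83 reads in dead and 4 in living libraries, with a change of 2.09 ± 1.20 and a ratio of 7.93 (2.98 to 29.8). Dead library b fell inside the living range for this guide.

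Averaged over the guides that passed the minimum, these guides largely cancelled. The mean Iqcd level was 9.09, 8.74 and 9.48 in dead libraries and 9.497 and 9.039 in living ones, a change of −0.16 ± 0.29 with overlapping libraries. The gene value was 0.59 without guide 202591, −0.54 without guide 202594 and −0.54 without guide 202595. Guide 202599 was left out of this mean, while guide 202595, scarce in living cells, passed on its dead counts. The change was −0.64 ± 0.27 with the minimum set on the mean of both group means, and −0.51 ± 0.21 without a minimum. The sum over guides gave another picture, with 27443, 56905 and 70075 normalised counts in dead cells and 19678 and 19843 in living cells, a log2 difference of 1.28. Guide 202594 alone made up 40.8%, 77.6% and 79.9% of the Iqcd sum in dead libraries and 37.7% and 35.4% in living ones. Without it the log2 difference of the sums was 0.19. The SD among the 7 tested Iqcd guides was 2.32, which ranked 5 among 915 genes. Its extremes were the rare guides 202591 (−4.70) and 202595 (2.09). All gene-targeting guides with a mean between 10 and 100 had an SD of 1.88. So nothing is read from that rank.

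For Spag17 the 4 guides most abundant in living cells had a change below 0, while a pair of guides scarce in living cells was much higher. All dead libraries lay below both living ones in 3 of the 4, where 17.7% of tested gene-targeting guides had this order. Guide 83871 had 1723, 1778 and 1944 normalised counts in dead cells, against 2928 and 2886 in living cells. The groups were well apart, with a change of −0.68 ± 0.19 and a ratio of means of 0.624. Guide 83869 had 2028, 1909 and 2508 normalised counts in dead cells and 3253 and 2855 in living cells, also without overlap (−0.51 ± 0.23). Guide 83873 had 804, 419 and 352 normalised counts in dead cells and 970 and 974 in living cells, all dead values below both living ones (−0.98 ± 0.42).

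The remaining common guides of Spag17 overlapped between the groups. Guide 83864 had 2720, 2927 and 2014 normalised counts in dead cells and 2950 and 2779 in living cells (−0.18 ± 0.26). Guide 83868 had 340, 830 and 393 in dead cells and 392 and 351 in living cells, with dead library b alone well above the rest (0.37 ± 0.46).

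The highest changes of Spag17 were those of guides with low counts in living cells. The living level is the baseline of the change, so a low baseline and a high change are partly the same observation. Guide 83866 had 223, 786 and 376 normalised counts in dead cells, against 50.2 and 89.9 in living cells. Every dead library was above both living ones, for a change of 2.57 ± 0.64 and a ratio of means of 6.59. Guide 83870 had 168, 102 and 73.6 normalised counts in dead cells and 50.2 and 1.25 in living cells, the lower living value being a single read. Its change was 3.35 ± 1.44, 1.09 without living library b and 5.60 without living library a. Guide 83865 had 138 normalised counts in dead library a, from 181 reads, and 0 in both other dead libraries, against 3.14 and 16.2 in living cells (−0.71 ± 2.59).

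The Spag17 mean therefore pointed away from most of its guides. The mean log2 level was 9.19, 8.49 and 8.13 in dead libraries and 8.33 and 8.07 in living ones. The change was 0.40 ± 0.34 with overlap, although 5 of 8 guides were lower. Of those 5, guide 83865 had no settled sign (−0.71 ± 2.59). Its change was 0.22 when 5 rather than 1 was added to the counts. Without dead library a the change of the Spag17 mean was 0.11. That mean changed by 0.0933 without guide 83866 and by −0.0174 without guide 83870. When guides were summarised by their median it was −0.14. The summed counts were 8144, 8751 and 7662 in dead cells and 10595 and 9951 in living cells. Their log2 difference was −0.33, where the median over all genes was 0.06.

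Pih1d2 had the highest mean change of the 4 genes, and the highest changes among its guides were those of guides with low counts in living cells. As for Spag17, a low baseline and a high change are partly the same observation. The mean log2 level was 9.37, 9.68 and 9.47 in dead libraries and 9.22 and 8.77 in living ones. All dead values lay above both living ones, with a change of 0.51 ± 0.23 that ranked 38 among 915 genes. Such a separation upward was seen in 76 of 915 genes (8.31%), and a change above 0 in 31.8%. Guides higher in dead cells numbered 6 of 9, where 43.6% of tested gene-targeting guides were higher, a share that rose with abundance.

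The highest changes were those of Pih1d2 guides 38914 and 38916. Guide 38914 had 282, 398 and 311 normalised counts in dead cells, against 141 and 15 in living cells. The groups did not overlap and the dead libraries were close to each other, while the living ones differed widely. Its change was 2.78 ± 0.99, 1.21 without living library b and 4.36 without living library a. Guide 38916 had 333, 614 and 695 normalised counts in dead cells and 257 and 127 in living cells, without overlap (1.52 ± 0.50, a ratio of means of 2.85). Guide 38915 had 262, 220 and 340 in dead cells and 130 and 218 in living cells, where the gap between the groups was narrow (0.67 ± 0.35).

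More abundant Pih1d2 guides had smaller changes, on both sides of 0. Guide 38911, the most abundant, had 3558, 4888 and 3470 normalised counts in dead cells and 3052 and 3001 in living cells, without overlap (0.37 ± 0.25). Guide 38908 had 2243, 2217 and 1387 in dead cells and 2068 and 1688 in living cells (0.03 ± 0.32). Guide 38912 had 1405, 2214 and 1241 in dead cells and 2261 and 2030 in living cells (−0.45 ± 0.33). Both of these overlapped between the groups.

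Guide 38910 had 1102, 958 and 1242 normalised counts in dead cells and 1101 and 1347 in living cells (−0.15 ± 0.23). Guide 38917 had 918, 1321 and 486 in dead cells and 529 and 625 in living cells, with dead library c below both living ones and the others above (0.54 ± 0.49). Guide 38913 had 83.7, 100.1 and 166 in dead cells and 238 and 144 in living cells (−0.72 ± 0.42). None of these had separate groups. The summed Pih1d2 counts were 10188, 12930 and 9338 in dead cells and 9778 and 9195 in living cells, overlapping, with a log2 difference of 0.18. Without guide 38914 the mean change was 0.23, and leaving out living library a gave 0.74 and leaving out living library b gave 0.28.

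Over the 30 tested guides of these genes, 10 had all dead libraries above both living ones, where 15.1% of tested gene-targeting guides did and 13.3% of control guides, which match no site or a site outside genes. The reverse order held for 5 of the 30, against 17.7% of gene-targeting and 17.7% of control guides. No guide of the 30 passed limma at an adjusted p of 0.05, while 2 of all 7248 tested guides did (0.0276%). By the FDR in the authors' deposited guide table, 15 of the 30 were higher and 7 lower at a threshold of 0.05, where the shares over tested gene-targeting guides were 22% and 21.3%, and over control guides 21.9% and 22%. Since the genes were chosen on this contrast, nothing is read from these counts.

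Over all tested guides, large single-guide changes went with low abundance. A guide was called outlying when its change was above 1.52 or below −1.73, that is 1.5 interquartile ranges beyond the quartiles of all tested guides. Of the 30 guides 6 were outlying upward and 2 downward, against 2.81% and 6.66% of all tested gene-targeting guides. As the genes were chosen on this contrast, nothing is read from that difference. By mean level over the 5 libraries, 4 of 5 guides between 10 and 100 were outlying, as were 41.9% of all gene-targeting and 37.5% of control guides at that level. Between 100 and 1000 it was 3 of 11, against 3.47% of gene-targeting and 3.09% of control guides, and these were guides 83866, 38916 and 38914. That mean includes the dead counts. Guides 83866 and 38914 had living means of 70.0 and 78.1 and dead means of 462 and 330. These 2 guides reached the class through their dead counts. In the class below, guide 202595 passed the minimum on a dead mean of 21.4, against a living mean of 2.98. So nothing is read from the comparison with the shares of either class. From 1000 upward it was 1 of 14, against 0.44% of 2729 gene-targeting guides and 0 of 243 control guides. That one was guide 202594 of Iqcd. In control guides at that level the 5th and 95th percentiles of the change were −0.56 and 0.96, and the highest was 1.39, under the 2.07 of guide 202594. Ttc26 guide 61295, at 0.72, lay inside the range of those percentiles, as did Spag17 guide 83869, at −0.51. Spag17 guide 83871, at −0.68, lay below that range. The genes were chosen on this contrast, so nothing is read from where their guides lay against the controls.

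A list of 240 symbols for cilium genes was compared next, to see how other genes of the organelle stood. The library held 31 of them, and all 27 besides the 4 could be fitted. None of the 27 passed limma at an adjusted p of 0.05 (lowest 0.329), as was true of all 915 genes (0%). At an unadjusted p under 0.05, 0 were higher and 2 lower. Of the 27, 8 had a change above 0 and 19 below (70.4%), where 68.2% of all genes were below 0. Their median was −0.06, against −0.16 for all genes. Dead and living libraries were separate upward for 3 of them and downward for 3, against 8.31% and 23.9% of all genes.

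The highest of these were Ift46 and Ift80, which encode further subunits of the IFT-B complex that holds the Ttc26 protein. Ift46 stood at 0.65 ± 0.32 with 5 of 8 guides higher, and its mean log2 level was above both living libraries in every dead one. Ift80 stood at 0.59 ± 0.33 with 5 of 7 guides higher, also without overlap. At a minimum guide mean of 50 they stood at 0.27 and 0.40, against 0.45 for Ttc26. Summed over guides they stood at 0.09 and 0.23, against 0.54 for Ttc26 and a median of 0.06 over all genes. The other IFT-B gene of the list in the library, Ttc30a1, stood at −0.04 ± 0.21 with 2 of 6 guides higher. Wdr60, a chain of the motor for return transport, stood at 0.29 ± 0.58 with 2 of 4 guides higher, and at −0.21 by summed counts.

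The lowest were Pih1d1, Bbs5 and Meig1. Pih1d1, which belongs to the same PIH family as Pih1d2 and is a subunit of a general assembly chaperone for large complexes, stood at −1.22 ± 0.34 with 1 of 5 guides higher. Without rare guides, at a minimum mean of 50, it stood at −0.23, and its summed counts were higher by 0.58. Dnaaf3, another dynein assembly factor, stood at −0.06 ± 0.37. Bbs5, a subunit of the BBSome that moves membrane proteins in cilia, stood at −1.20 ± 0.39 with 3 of 8 guides higher, at −0.12 without rare guides and at −0.09 by summed counts. Meig1, a gene of sperm formation, stood at −0.77 ± 0.47, at −0.05 without rare guides and at 0.69 by summed counts. Spef1, which like Spag17 belongs to the central pair, stood at −0.53 ± 0.23, with 3 of 8 guides higher, at 0.02 without rare guides and at 0.31 by summed counts.

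Profiles over the 5 libraries were also compared between genes, by the Euclidean distance between mean log2 levels centred on each gene's own mean. Near to Ttc26 was Grrp1, at a distance of 0.206. Nearest to Iqcd were Ino80b and Tatdn2, at 0.215 and 0.226, and nearest to Spag17 were Sprr2d and Rfesd, at 0.32 and 0.393. Nearest to Pih1d2 were Ccdc86 and 4930430F08Rik, at 0.135 and 0.247. No cilium gene of the list was among these 7, and 5 libraries allow only a coarse comparison.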

How the data were processed

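Guide libraries of dead galactose cells (3) and living glucose cells (2) were analysed. The UV-RIP tables of the series were not used here. The submitters' processing notes name MAGeCK 0.5.9.5 and, among the builds, GRCm39. How guides were counted is not given in the sources used here. The authors' deposited guide table holds, per the file headers, normalised guide counts per library, joined in one cell per group, a signal value per group, a log2 fold change, a p-value and an FDR. The authors' deposited gene table gives a p-value, an FDR, a rank score and a log2 fold change per gene. Library letters follow the order inside a cell, and no replicate number is attached to them.

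Low values were whole multiples of 1 step in each library (100% within 0.1 read), which gave the reads. Values of abundant guides are deposited to 5 digits, so their reads are approximate. Log2(normalised count + 1) of guides with a mean of at least 10 was fitted in limma 3.58.1 (R 4.3.3, lmFit and eBayes, 2-sided, Benjamini-Hochberg over all guides). The same was done for the mean per gene and library over the 915 genes with at least 3 such guides. The fit was tested on simulated data. The genes and the cilium list were chosen with earlier results of these data known. The genes named are the 4 genes, the 3 highest and 3 lowest of the other cilium genes, and the 2 nearest profiles of each of the 4, of which 1 is not reported here. Ttc30a1, Dnaaf3 and Spef1 were added after their values were seen, for sharing a complex or role with one of the 4. Guide sequences were not analysed here.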

Additional observations from a re-analysis of the deposited data

How the results depend on the processing

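Of the gene values, Pih1d2 stayed above 0 under all 22 alternatives, and Ttc26 was below 0 in 12 of 19, Iqcd in 13 of 20 and Spag17 in 3 of 21. Ttc26 (−0.11) became 0.45 at a minimum guide mean of 50 and without guide 61292, 0.55 with the median of guides, and 0.54 with summed guides. Iqcd (−0.16) became 0.29 at that minimum, −0.64 with the filter on the mean of both group means, 1.28 with summed guides, −0.54 without guide 202594, −0.54 without guide 202595 and 0.59 without guide 202591. Spag17 (0.40) became −0.14 with the median of guides and −0.33 with summed guides. Pih1d2 (0.51) became 0.18 with summed guides and 0.23 without guide 38914. Leaving out 1 library at a time gave −0.29 to 0.0749 for Ttc26, −0.39 to 0.0652 for Iqcd, 0.11 to 0.64 for Spag17 and 0.28 to 0.74 for Pih1d2. Ttc26 was above 0 without dead library b (0.0264) and without living library b, and Iqcd without dead library b (0.0198) and without living library a. Both were also above 0 when 5 rather than 1 was added to the counts, Ttc26 at 0.0742 and Iqcd at 0.0180. The cilium genes above 0 numbered 13 with summed guides and 8 to 13 with 1 library left out, the 13 being without dead library a. Scaling to equal totals moved the median of all genes to −0.28, against which Ttc26 stood at 0.0516, Iqcd at −0.000644, Spag17 at 0.57 and Pih1d2 at 0.67. No gene passed limma under any of the 13 alternatives run on all genes. Of 30 guides, 25 kept their sign under all alternatives run on guides. The summed fit was added after seeing the data. The edgeR tests on recovered reads were not run. No paired analysis was possible because the columns carry no replicate number for a library. Living libraries were less deep than dead ones, so guides under 100 normalised counts rest on few reads there.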
